A study of Mus musculus with 6 samples.

Results

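The genes described here encode the subunits of RNA polymerases I, II and III (Pol I, Pol II and Pol III) and the main factors that start Pol I and Pol III transcription. They were every gene of the count table whose symbol begins with Polr1, Polr2 or Polr3, together with *Rrn3*, *Ubtf*, *Taf1a* to *Taf1d*, *Brf1*, *Brf2*, *Bdp1*, *Maf1*, *Gtf3a* and *Gtf3c1* to *Gtf3c6*. This gave 45 genes of 24499 in the table, and all 45 were among the 13296 genes with enough counts to be tested.

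RNA-seq was performed on iGCBs, germinal center-like B cells made in culture, from 3 cKO and 3 control mice. The cKO mice carried *Eif3e* fl/fl, Cγ1Cre and Rosa26-YFP LSL alleles, and lost eIF3e, a subunit of a translation initiation factor, only in cells that expressed Cre. The labels call the other group control, and the study gives Cγ1Cre Rosa26-YFP LSL mice as its controls, so both groups carried Cre and the reporter. Splenic naïve B cells were grown on 40LB cells, a BALB/c 3T3 feeder line expressing CD40L and BAFF that had received 120 Gy, with IL-4 at 1 ng/ml, and YFP+ cells were sorted at day 3. Because Cγ1Cre follows transcription of the Ig γ1 constant region, deletion occurs after activation, and cells still hold RNA and protein made before it. The ages of the mice are not given in the labels.

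Pol I makes the precursor of the large ribosomal RNAs in the nucleolus, Pol II makes messenger RNA, and Pol III makes tRNA and other small RNAs. Each enzyme has its own pair of large subunits that form the active site, and several small subunits are common to more than 1 enzyme. Growing B cells are known for large nucleoli and a high output of ribosomes, which draws on Pol I for rRNA, Pol III for the remaining small rRNA and tRNA, and Pol II for ribosomal protein mRNA. The libraries were made from polyA RNA, so they report the mRNA of the polymerase genes and not the rRNA or tRNA that these enzymes make.

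Library totals ranged from 39079582 to 45504570 counts. Correlations of log2 CPM between libraries (CPM, counts per 1000000 counts of the library, with TMM factors) were 0.990 to 0.993 within groups and 0.970 to 0.977 between groups. *Eif3e* had 173, 149.8 and 152 CPM in the cKO libraries, in order of replicate number, and 424, 401 and 392 CPM in the controls, so every library matched its label. The 6 B cell markers summed to 4413 to 4665 CPM in cKO and 4318 to 4655 CPM in control libraries. Fibroblast markers, which the feeder cells express, summed to 106 to 130.1 CPM in cKO and 81.2 to 153 CPM in control libraries, with *Lum* at 3 counts or fewer in every library. Of the 8 tested, *Fn1* rose (log2 fold change 1.07) and no other was called. Myeloid markers summed to 4.09 to 6.12 CPM in cKO and 1.21 to 2.44 CPM in controls, with *Cd14* at 3 counts or fewer in every library. Of the 2 myeloid markers with enough counts to be tested, *Adgre1* rose (log2 fold change 1.96, adjusted p = 0.00203) and made up most of the sum in cKO, and *Itgam* was not called (-1.08, adjusted p = 0.204). The 5 plasma cell markers summed to 652 to 779.5 CPM in cKO and 826 to 852 CPM in controls, but they did not move together. *Jchain* (log2 fold change -4.00), *Prdm1* (-1.13) and *Xbp1* (-1.10) fell, while *Sdc1* (1.60) and *Irf4* (0.42) rose. T cell markers summed to at most 0.353 CPM. *Xist* was high in cKO replicate 2 and control replicates 1 and 2 and at 16 counts or fewer in the other libraries, so the sex of the mice differed within both groups. The part of these differences in the results below was not tested, except that *Xist* was also used as a covariate. In bulk samples, a change in the share of cells of 1 state and a change in RNA per cell cannot be told apart.

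The promoters of these genes are shown first, so that the letters at their start sites can be set beside the values below. RefSeq promoters (GRCm38.p6, 250 bases before to 50 after each start) were found for 36 of the 45 genes. *Brf1*, *Brf2*, *Maf1*, *Polr2d*, *Polr2g*, *Polr2k*, *Polr3a* and *Polr3d* were among those with no entry. Each motif was searched on both strands. CACGTG, the E-box that MYC and related factors bind, was in promoters of 6 of the 36 genes (16.7%), compared with 8.09% of all genes and 11.7% of the tested genes with a promoter. The windows of 30 bases around these matches follow, with CACGTG in capitals and the gene strand read 5′ to 3′.
Polr3e, chr7:120917771-120917800, plus strand: ccccgctcccccCACGTGtccggcggagtt
Rrn3, chr16:13780472-13780501, plus strand: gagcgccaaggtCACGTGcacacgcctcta
Rrn3, chr16:13780639-13780668, plus strand: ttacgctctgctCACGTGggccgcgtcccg
Gtf3c6, chr10:40257751-40257780, minus strand: gtgtcgagtctcCACGTGggacccacttac
Polr2h, chr16:20717837-20717866, plus strand: cttacttttctcCACGTGagggggtgcgcg
Polr3c, chr3:96727659-96727688, minus strand: gcccgcaagggtCACGTGagtccgcccggc
Polr3gl, chr3:96594358-96594387, minus strand: ttctggctccgcCACGTGtctggatgagct

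Of these 6 genes, *Polr3e*, *Rrn3* and *Gtf3c6* were higher in cKO, *Polr3gl* was lower, and *Polr2h* and *Polr3c* were not called (values below). CCGGAAG, a core that ETS family factors bind, was in promoters of 16 of the 36 genes (44.4%), compared with 9.93% of all genes and 19.99% of the tested genes. Of these 16, 6 were higher (37.5%), 2 were lower and 8 were not called, compared with 15 higher among the 36 genes (41.7%). The matches are shown for each of the 7 Pol I subunits, shared ones included, and Pol I factors that held 1, with the match in capitals, where CTTCCGG is the same motif on the other strand.
Polr1e, chr4:45018623-45018652, plus strand: ctagaatgtcaCTTCCGGtttttgagtccg
Polr1c, chr17:46248069-46248098, minus strand: ccacttgacgtCCGGAAGtgaaggacgtgg
Polr2f, chr15:79141297-79141326, plus strand: gccgctgcttcCCGGAAGtaactgcgcctg
Rrn3, chr16:13780683-13780712, plus strand: ctgcagcgccaCTTCCGGggcgggtaggtc
Rrn3, chr16:13780706-13780735, plus strand: gtaggtcgtggCTTCCGGcgcaaggccggg
Taf1a, chr1:183388810-183388839, plus strand: gtcaacatccaCTTCCGGgcctcgtccgga
Taf1a, chr1:183388824-183388853, plus strand: ccgggcctcgtCCGGAAGcctcttcagagc
Taf1a, chr1:183388965-183388994, plus strand: ctcgttaactgCTTCCGGacagggttttcc
Taf1b, chr12:24498571-24498600, plus strand: ccccgtctctcCCGGAAGcggcgcttgctg
Taf1c, chr8:119605215-119605244, minus strand: tctcgggcgaaCTTCCGGcctgatccggaa

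Of these 7, *Polr1e*, *Polr1c*, *Polr2f* and *Rrn3* were higher in cKO, *Taf1b* was lower, and *Taf1a* and *Taf1c* were not called. The share higher was 57.1%, compared with 41.7% of the 36 genes with a promoter and 24.1% of all genes tested. GGGCGG, the GC box, was in 66.7% of the member promoters and 68.0% of those of the tested genes. In *Rrn3* it shares 1 base with the first of the CCGGAAG matches shown. TATAAA was in 3 of the 36 (8.33%, compared with 8.63% of the tested genes), those of *Polr2a*, *Polr2c* and *Gtf3c6*. The core motif of NRF1, a factor of growth and mitochondrial genes, was in 0 of the 36, compared with 2.35% of the tested genes. These matches are letters in a window and say nothing about binding.

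Of the 45 genes, 19 (42.2%) were higher and 7 (15.6%) were lower in cKO at an adjusted p under 0.05 (edgeR's quasi-likelihood test with Benjamini-Hochberg adjustment over 13296 genes). Over all genes tested, 24.1% were higher and 24.5% were lower at this threshold. When the fold change also had to exceed 1.5, *Polr1a*, *Polr1b*, *Polr2e*, *Polr2l* and *Polr3e* were higher (11.1% of the genes, with 10.4% of all genes) and *Maf1* alone was lower (2.2%, with 10.6% of all genes). The share higher was thus near the background at the stricter cutoff. The 3 cKO libraries did not overlap the 3 control libraries for 31 of the 45 genes (68.9%), compared with 58.7% of all genes. These were 23 genes higher in cKO (51.1%, with 29.2% of all genes) and 8 lower (17.8%, with 29.5% of all genes). The median log2 fold change was 0.15 over the 45 genes and -0.004 over all genes tested.

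**Figure D1:**
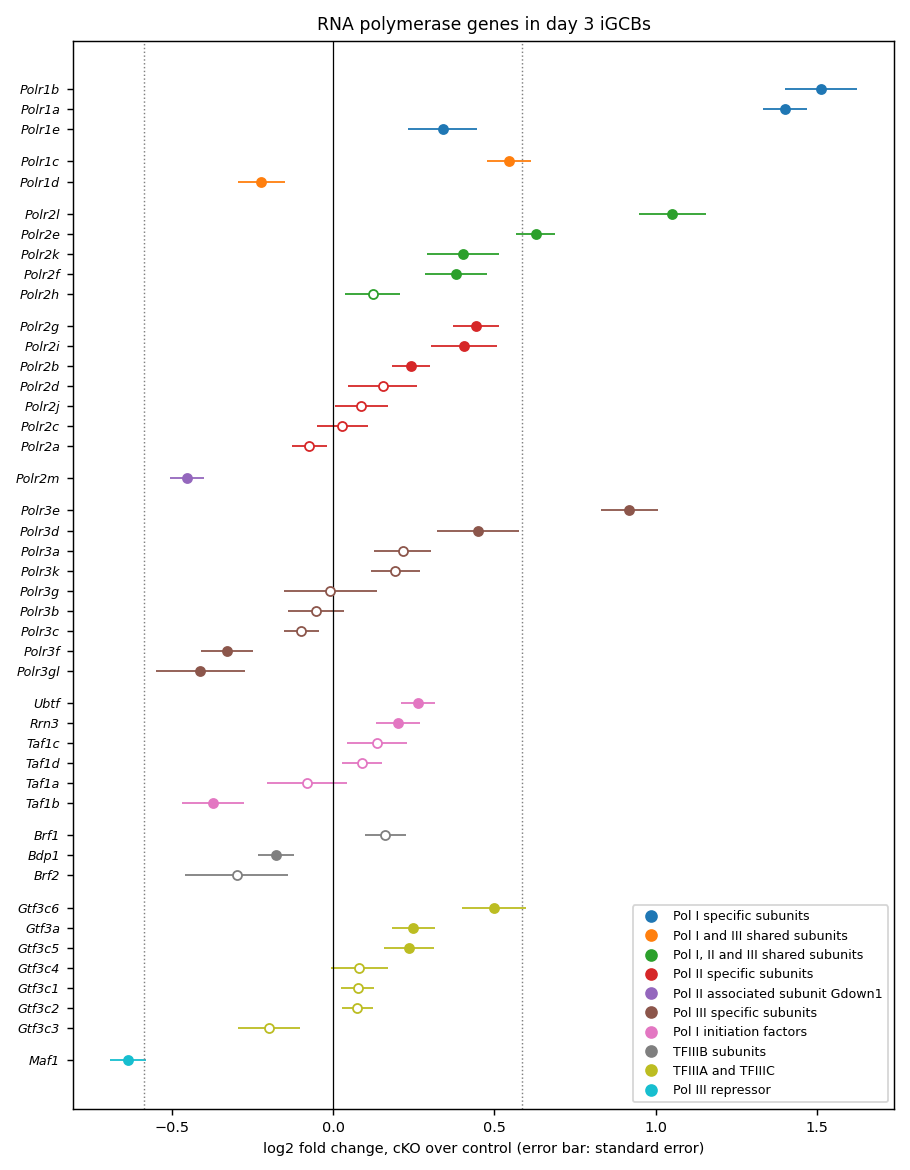
The log2 fold change of 44 of the 45 genes in cKO relative to control, by role, with the standard error as a bar. Filled points passed an adjusted p of 0.05, and dotted lines mark 1.5-fold. *Polr1b* (1.51) and *Polr1a* (1.40) lie farthest to the right and *Maf1* (-0.64) farthest to the left.

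Both large subunits of Pol I were higher in cKO, and the smaller subunits found only in Pol I were mixed. The 3 with a Polr1 symbol, which are among the 45 genes, were all higher (median log2 fold change 1.40). Over the 6 subunits found only in Pol I, whatever their symbol, 4 were higher, 1 was lower and 1 was not called, and the median was 0.58. Over all genes, 24.1% were higher and 24.5% were lower. *Polr1a*, the largest subunit, which carries the active site, was at 180.2, 194 and 191 CPM in cKO libraries (replicate 1 first, here and below) and at 67.0, 68.6 and 78.3 CPM in the controls. All cKO libraries lay above all control libraries, with a gap far wider than the spread within either group. The log2 fold change was 1.40 (SE 0.0688, the standard error of the log2 value, adjusted p = 6.99e-07), which is 2.64-fold. *Polr1b*, the second large subunit, was at 70.9, 94.2 and 77.3 CPM in cKO and at 27.3, 26.4 and 31.3 CPM in control libraries. Replicate 2 was the highest of the cKO libraries, and the groups did not overlap. Its log2 fold change was 1.51 (SE 0.111, adjusted p = 4.49e-06), or 2.85-fold. *Polr1a* lies at chr6:71909053-71984935 on the plus strand and *Polr1b* at chr2:129100995-129126594 on the plus strand (GENCODE M21, GRCm38).

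*Polr1e*, which pairs with the product of *Cd3eap* and helps Pol I to start and to elongate, rose less, with 25.7, 31.3 and 24.4 CPM in cKO and 20.7, 22.2 and 21.5 CPM in control libraries. Its log2 fold change was 0.34 (SE 0.108, adjusted p = 0.0243). The groups did not overlap, but cKO replicate 2 stood above the other 2 cKO libraries. The call was lost without that library (log2 fold change 0.23, adjusted p = 0.0960) and without control replicate 1 (0.31, adjusted p = 0.0706). 3 further Pol I subunits are listed under other symbols and are not among the 45 genes. *Cd3eap* was at 19.4, 19.6 and 17.8 CPM in cKO and at 11.9, 9.31 and 11.03 CPM in control libraries, a log2 fold change of 0.82 (SE 0.118, adjusted p = 0.000269). *Twistnb*, of the stalk, was slightly lower (-0.22, adjusted p = 0.0392), and *Znrd1*, which aids RNA cleavage, did not pass the test (-0.17, adjusted p = 0.104). Of the 4 subunits listed under other symbols, the number called lower went from 1 to 0 with DESeq2 and without cKO replicate 1, 2 or 3 or control replicate 2 or 3. *Crcp*, a Pol III subunit under its older name, had a log2 fold change of 0.02.

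Of the subunits shared by Pol I and Pol III, which form the assembly platform of both enzymes, 1 was higher and 1 was lower. *Polr1c* was at 87.3, 89.2 and 86.3 CPM in cKO and at 60.4, 54.8 and 64.8 CPM in control libraries, with a log2 fold change of 0.55 (SE 0.0673, adjusted p = 0.000101). *Polr1d*, its partner, was at 118, 124 and 109 CPM in cKO and at 131, 149.9 and 129 CPM in control libraries, with a log2 fold change of -0.22 (SE 0.0725, adjusted p = 0.0276). The groups overlapped for neither gene, so the gene totals moved in opposite directions. The *Polr1d* total sums 2 transcripts that encode proteins of 133 and 126 residues. Before scaling, the first had 2799, 2742 and 2479 counts in cKO and 2876, 2509 and 2717 in control libraries. The second had 2546, 2820 and 2158 counts in cKO and 3019, 3384 and 2576 in control libraries. The call of *Polr1d* was lost with *Xist* as a covariate (-0.17, adjusted p = 0.0824) and without cKO replicate 1 (-0.23, adjusted p = 0.0630), cKO replicate 3 (-0.18, adjusted p = 0.0977) or control replicate 2 (-0.16, adjusted p = 0.0770).

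The subunits common to all of the enzymes were mostly higher, with 4 of 5 called (80.0%, with 24.1% of all genes higher). Their median log2 fold change was 0.40. *Polr2l*, a small zinc-binding subunit of the assembly core, was at 39.3, 48.6 and 39.1 CPM in cKO and at 20.5, 19.4 and 21.4 CPM in control libraries. Every cKO library was thus well above every control library, and replicate 2 was again the highest. Its log2 fold change of 1.05 (SE 0.104, adjusted p = 2.5e-05) was the third largest of the 45. *Polr2e*, which forms part of the jaw that grips DNA, was at 79.3, 84.8 and 80.7 CPM in cKO and at 50.2, 53.5 and 54.7 CPM in control libraries (log2 fold change 0.63, SE 0.0606, adjusted p = 2.14e-05). *Polr2f* and *Polr2k* rose by log2 fold changes of 0.38 (adjusted p = 0.00816) and 0.40 (adjusted p = 0.013). *Polr2h* had a log2 fold change of 0.12 and was not called (adjusted p = 0.258), although its cKO libraries, at 26.0 to 27.0 CPM, lay above its controls, at 22.8 to 25.1 CPM. The call of *Polr2k* was lost without control replicate 2 (0.34, adjusted p = 0.0554). *Polr2k* also has a pseudogene of at least 95% identity over at least 50% of its transcript, so its count is less certain. With the shared subunits included, 8 of the 10 Pol I subunits among the 45 genes were higher (80.0%, with 24.1% of all genes). Of the others, *Polr1d* was lower (10.0%, with 24.5% of all genes) and *Polr2h* was not called.

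**Figure D2:**
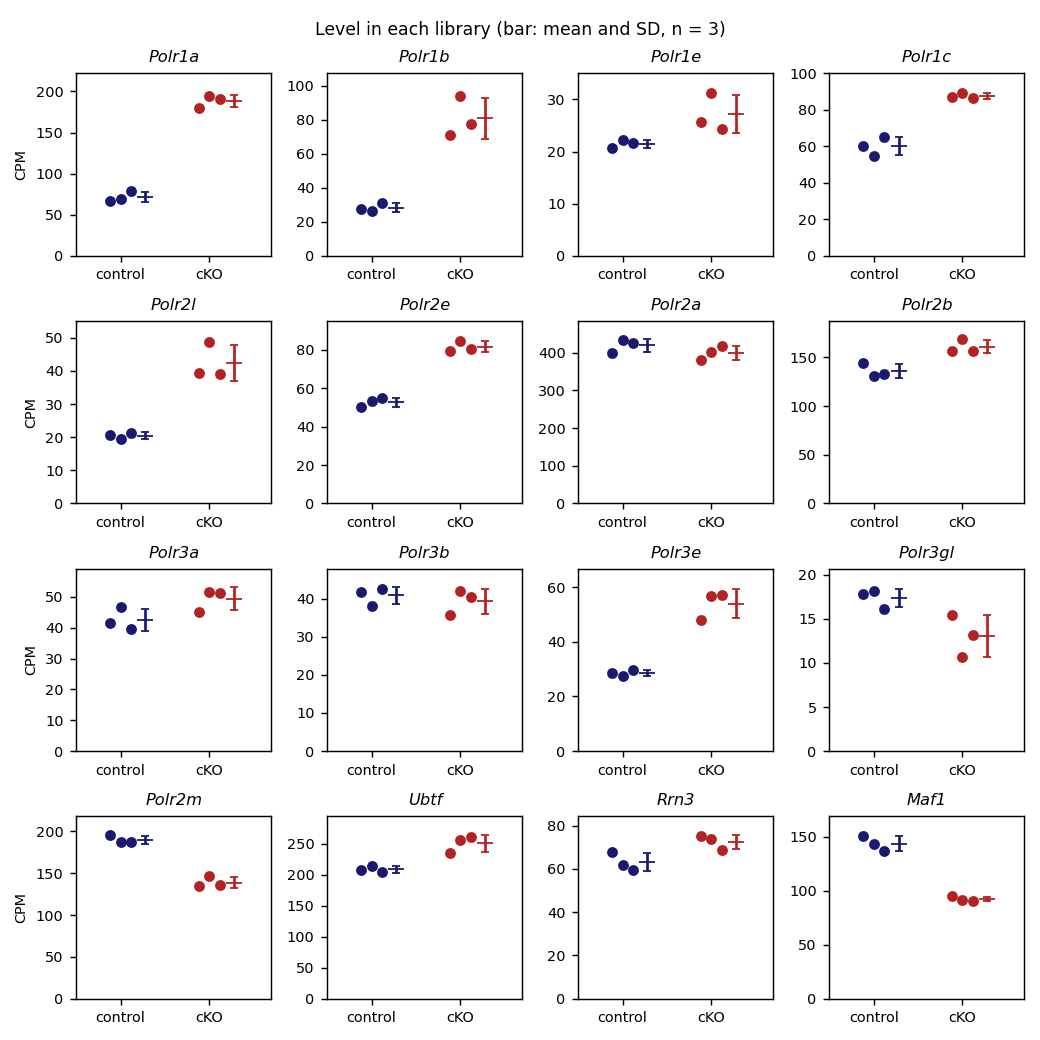
CPM of 16 genes in each of the 3 control and 3 cKO libraries (points), with the mean and SD beside them. *Polr1a*, *Polr1b*, *Polr2l* and *Polr3e* separate widely between the groups, *Polr2a* and *Polr3b* overlap, and *Maf1* is lower in every cKO library.

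The large subunits of Pol II did not follow those of Pol I. *Polr2a*, the largest Pol II subunit, was at 379.8, 401 and 417 CPM in cKO and at 400.1, 433 and 427 CPM in control libraries. The groups overlapped, and the log2 fold change was -0.07 (95% interval -0.20 to 0.05, adjusted p = 0.299). *Polr2b*, the second largest, was at 157, 168 and 157 CPM in cKO and at 144, 130.4 and 133 CPM in control libraries. It was higher in every cKO library, but by a log2 fold change of only 0.24 (SE 0.0578, adjusted p = 0.006). *Polr2g*, of the stalk, was at 46.2, 47.1 and 48.6 CPM in cKO and at 34.6, 35.7 and 34.2 CPM in control libraries (log2 fold change 0.44, SE 0.0702, adjusted p = 0.000507). *Polr2i*, which acts in start site choice and fidelity, was at 17.2, 19.7 and 20.2 CPM in cKO and at 14.98, 14.1 and 13.99 CPM in control libraries (0.41, SE 0.103, adjusted p = 0.008). Both were above every control, and 26.8% of the annotated exon bases of *Polr2i* lie opposite exons of *Tbcb*.

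The remaining Pol II subunits did not pass the test. *Polr2d*, which joins *Polr2g* in the stalk, had a log2 fold change of 0.15 (adjusted p = 0.263), and it passed only without control replicate 3 (0.27, adjusted p = 0.0481). *Polr2c* and *Polr2j*, partners in the assembly of Pol II, had log2 fold changes of 0.03 (adjusted p = 0.799) and 0.09 (adjusted p = 0.406). Both overlap another gene on the opposite strand over at least 10% of their exon bases. In all, 3 of the 7 Pol II subunits were higher (42.9%, with 24.1% of all genes) and the other 4 were not called. The highest log2 fold change of the group was the 0.44 of *Polr2g*.

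*Polr2m* encodes Gdown1, which binds Pol II and makes it depend on the Mediator complex. It was at 134, 146 and 136 CPM in cKO and at 195, 188 and 187 CPM in control libraries. Every cKO library was below every control (log2 fold change -0.45, SE 0.0527, adjusted p = 7.08e-05).

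Of the 10 subunits found only in Pol III, 3 were higher (30%), 2 were lower (20%) and 5 were not called, shares near the 24.1% and 24.5% of all genes, and their median log2 fold change was 0.09. The large subunits moved little. *Polr3a*, the largest, was at 45.1, 51.7 and 51.3 CPM in cKO and at 41.4, 46.6 and 39.6 CPM in control libraries, and the groups overlapped. Its log2 fold change of 0.22 (95% interval 0.02 to 0.41) had an adjusted p of 0.0664. It passed with DESeq2 (0.23, adjusted p = 0.0498), with at least 10 counts required in every library (0.22, adjusted p = 0.0363), with *Xist* as a covariate (0.27, adjusted p = 0.0295) and without cKO replicate 1 (0.28, adjusted p = 0.0413) or control replicate 2 (0.28, adjusted p = 0.0318). *Polr3b*, the second largest, was at 35.6, 41.9 and 40.5 CPM in cKO and at 41.6, 38.2 and 42.6 CPM in control libraries. Its libraries were mixed, with a log2 fold change of -0.05 (95% interval -0.25 to 0.14, adjusted p = 0.648).

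The subunits that pair for Pol III termination and re-initiation, *Polr3d* and *Polr3e*, were both higher. *Polr3e*, at chr7:120917744-120947432 on the plus strand, was at 48.0, 56.9 and 57.0 CPM in cKO and at 28.5, 27.5 and 29.7 CPM in control libraries. Every cKO library was far above every control library, and the log2 fold change was 0.92 (SE 0.0886, adjusted p = 2.14e-05), which is 1.89-fold. *Polr3d* was at 21.0, 25.9 and 19.1 CPM in cKO and at 15.1, 15.9 and 17.4 CPM in control libraries. The groups came close, at 19.1 and 17.4 CPM, and the log2 fold change of 0.45 (SE 0.126, adjusted p = 0.0138) missed the threshold without cKO replicate 2 (0.32, adjusted p = 0.0556).

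The trimer that opens DNA for Pol III held the 2 subunits that fell. *Polr3f* was at 36.6, 39.5 and 36.0 CPM in cKO and at 47.1, 43.7 and 49.95 CPM in control libraries, with no overlap and a log2 fold change of -0.33 (SE 0.0799, adjusted p = 0.00652). *Polr3c*, which binds it, had a log2 fold change of -0.10 (adjusted p = 0.17). The third place in the trimer is taken by the product of either *Polr3g*, known from stem cells and tumours, or *Polr3gl*, known from most tissues. *Polr3g* was at 19.1, 23.6 and 16.1 CPM in cKO and at 21.5, 20.4 and 17.4 CPM in control libraries, and its groups overlapped (log2 fold change -0.01, 95% interval -0.33 to 0.31, adjusted p = 0.971). *Polr3gl* was at 15.4, 10.6 and 13.1 CPM in cKO and at 17.8, 18.2 and 16.1 CPM in control libraries, lower in every cKO library (-0.41, SE 0.138, adjusted p = 0.0311). Its call was lost without cKO replicate 2 (-0.28, adjusted p = 0.101), cKO replicate 3 (-0.41, adjusted p = 0.0632), control replicate 1 (-0.39, adjusted p = 0.0837) or control replicate 2 (-0.39, adjusted p = 0.0915). *Polr3k*, which acts in RNA cleavage, had a log2 fold change of 0.19 (adjusted p = 0.0566), and it passed with library totals in place of TMM (0.20, adjusted p = 0.0470) and with at least 10 counts in every library (0.20, adjusted p = 0.0311).

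To compare the enzymes with each other, the large subunits were set against one another within each library, which nearly removes any effect of scaling (all ratios use CPM + 0.5). The ratio of *Polr1a* to *Polr2a* was 0.475, 0.485 and 0.458 in cKO libraries and 0.168, 0.159 and 0.184 in the controls. This is a difference of 1.47 on the log2 scale (SE 0.0661). The ratio of *Polr1a* to *Polr3a* was 3.96, 3.73 and 3.69 in cKO and 1.61, 1.47 and 1.97 in control libraries, a difference of 1.18 (SE 0.129). Each ratio was thus higher in every cKO library, which places the rise of the Pol I subunit beyond that of either counterpart. *Polr3a* to *Polr2a* differed by much less, at 0.120, 0.130 and 0.124 in cKO and 0.105, 0.109 and 0.0937 in control libraries (log2 difference 0.29, SE 0.0724).

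The second large subunits gave the same order for Pol I but not for Pol III. *Polr1b* to *Polr2b* was 0.454, 0.561 and 0.495 in cKO and 0.192, 0.205 and 0.238 in control libraries (log2 difference 1.25, SE 0.127). *Polr1b* to *Polr3b* was 1.98, 2.24 and 1.90 in cKO and 0.660, 0.695 and 0.738 in control libraries (1.54, SE 0.0849). In contrast, *Polr3b* to *Polr2b* was lower in cKO, at 0.229, 0.251 and 0.261 against 0.291, 0.295 and 0.322 (-0.30, SE 0.0710). The groups did not overlap for any of these 6 ratios or for *Polr3g* to *Polr3gl* and *Brf1* to *Brf2*. Each of the 8 had a p of 0.1 in a two-sided exact permutation test, and 0.1 after Benjamini-Hochberg adjustment, which is the smallest p that 3 against 3 libraries can give, so the threshold of 0.05 could not be reached.

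**Figure D3:**
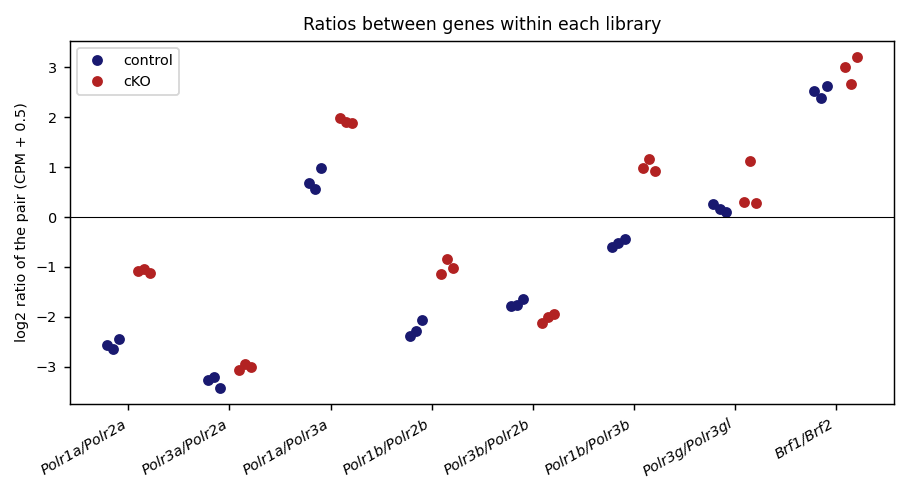
The log2 ratio of CPM + 0.5 between pairs of genes in each library. Pairs that set *Polr1a* or *Polr1b* against a Pol II or Pol III subunit are 1.18 to 1.54 higher in cKO on the log2 scale, the Pol III to Pol II pairs move by 0.29 and -0.30, and cKO replicate 2 stands apart for *Polr3g*/*Polr3gl*.

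The paralog pair of Pol III showed a small change that rested on 1 library. *Polr3g* to *Polr3gl* was 1.23, 2.17 and 1.22 in cKO and 1.20, 1.12 and 1.07 in control libraries. The cKO replicates 1 and 3 lay just above the highest control, and replicate 2 was far above. The log2 difference was 0.39 (SE 0.278) and 0.12 without cKO replicate 2.

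Averaged over the members of each enzyme, the same contrast appeared, as a description of the genes above and with no test. Relative to the mean of the controls, the mean log2 CPM of the 3 Pol I subunits with a Polr1 symbol was higher by 0.97, 1.23 and 1.01 in the cKO libraries. With *Cd3eap*, *Twistnb* and *Znrd1* added, the values for the 6 subunits were 0.55, 0.69 and 0.57. For the 7 Pol II subunits the values were 0.14, 0.22 and 0.19, and for the 10 Pol III subunits they were 0.08, 0.18 and 0.09. The 7 shared subunits lay between, at 0.37, 0.48 and 0.37.

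Levels of different genes were compared per kilobase of transcript (CPM per kb). In control cells, *Polr2a* was the most abundant Pol II subunit at 62.3 ± 2.59 CPM per kb (SD, n = 3), whereas *Polr1a* was at 7.73 ± 0.665 and *Polr3a* at 9.07 ± 0.777. The control ranges of *Polr1a* (7.27 to 8.50) and *Polr3a* (8.44 to 9.94) overlapped. In cKO cells, *Polr1a* was at 20.4 ± 0.783 CPM per kb, *Polr3a* at 10.5 ± 0.791 and *Polr2a* at 59.2 ± 2.78. The cKO ranges of *Polr1a* (19.5 to 21.0) and *Polr3a* (9.62 to 11.03) did not overlap.

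Within the enzymes the order was as follows. The 3 Pol I subunits were at 7.09 to 7.73 CPM per kb in controls, and the ranges of neighbours overlapped. In cKO cells *Polr1a* and *Polr1b*, at 20.4 and 20.2 CPM per kb, had parted from *Polr1e* at 9.09. Among Pol II subunits, the control order ran from *Polr2a* through *Polr2j*, *Polr2d*, *Polr2g*, *Polr2b* and *Polr2c* to *Polr2i* at 17.5 CPM per kb, with overlapping ranges for *Polr2j* and *Polr2d* and for *Polr2d* and *Polr2g*. *Polr3c* was the highest Pol III subunit in both groups, at 36.3 CPM per kb in controls and 33.9 in cKO, and *Polr3g* had the lowest mean, at 6.46 and 6.43. The range of *Polr3g* overlapped that of *Polr3e* in controls and those of *Polr3b* and *Polr3gl* in cKO. Other neighbours with overlapping control ranges were *Polr3gl* and *Polr3k*, *Polr3f* and *Polr3a*, *Polr3a* and *Polr3b*, and *Polr3b* and *Polr3d*. *Polr3e* went from 6.81 to 12.9 CPM per kb and *Polr3gl* from 12.2 to 9.15. Of the shared subunits, *Polr1d* was highest at 120 CPM per kb in controls, *Polr2e* and *Polr1c* had overlapping ranges near 45.98 and 45.7, as did *Polr2h* and *Polr2f*. *Polr2l* had the lowest mean in both groups, at 12.4 and 25.7, and its cKO range overlapped those of *Polr2f*, *Polr2h* and *Polr2k*. Some of these genes, among them *Polr1d*, *Polr1e*, *Polr2k*, *Polr3d*, *Polr3e* and *Polr3gl*, have more than 1 transcript. Their lengths, and these levels, depend on the transcript chosen. For *Polr3gl* the length used was 1427 bases. Its other transcript, of 607 bases, took 20.7% of its control and 12.8% of its cKO counts on average.

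**Figure D4:**
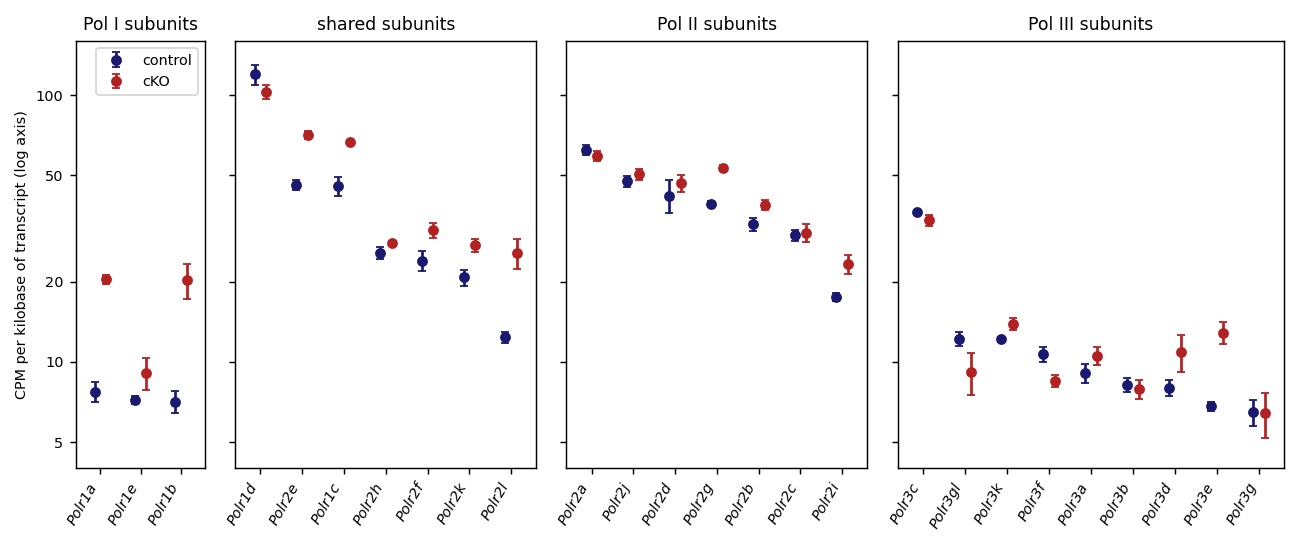
Mean CPM per kilobase of transcript, on a log axis, with the SD over 3 libraries as a bar, for subunits of each enzyme in order of the control level, with 1 Pol III subunit not shown. Control levels of the 3 Pol I subunits (7.09 to 7.73) lie below those of all 7 Pol II subunits, and *Polr1a* and *Polr1b* are near 20.4 and 20.2 in cKO.

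The factors that start Pol I transcription changed less than its large subunits. Of the 6, 2 were higher (33.3%), 1 was lower (16.7%) and 3 were not called. Over all genes, 24.1% were higher and 24.5% were lower. *Ubtf*, which binds and opens the rRNA genes, was at 235, 256 and 261 CPM in cKO and at 208, 215 and 204 CPM in control libraries. It was higher in every cKO library, by a log2 fold change of 0.26 (SE 0.0538, adjusted p = 0.0024). *Rrn3*, which links Pol I to the promoter and responds to growth signals, was at 75.1, 73.7 and 69.0 CPM in cKO and at 68.0, 61.8 and 59.7 CPM in control libraries. The groups nearly met, at 69.0 and 68.0 CPM. Its log2 fold change of 0.20 (SE 0.0674, adjusted p = 0.0312) lost its call without cKO replicate 1 (0.18, adjusted p = 0.0976), cKO replicate 2 (0.19, adjusted p = 0.0932), control replicate 2 (0.18, adjusted p = 0.104) or control replicate 3 (0.16, adjusted p = 0.0889).

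*Taf1a* to *Taf1d* encode the parts of SL1, the complex that recognises the rRNA promoter with TBP. *Taf1b* was at 22.3, 19.3 and 21.1 CPM in cKO and at 28.2, 24.9 and 27.9 CPM in control libraries, lower without overlap (log2 fold change -0.37, SE 0.0956, adjusted p = 0.00873). *Taf1a*, *Taf1c* and *Taf1d* had log2 fold changes of -0.08 (adjusted p = 0.627), 0.14 (adjusted p = 0.257) and 0.09 (adjusted p = 0.274), and their groups overlapped. *Taf1d* has a pseudogene of at least 95% identity, and *Taf1c* overlaps another gene on the opposite strand. Most *Taf1d* counts, 64.8% ± 3.35 in cKO and 61.4% ± 3.38 in controls (SD, n = 3), were assigned to NR_028401. RefSeq numbers NR_028401 as non-coding, although its matched GENCODE transcript encodes 288 residues. NM_027261 took a lower share in cKO without overlap and NM_029248 a higher one, although transcript use was not called. *Tbp*, listed with the Pol II factors, had a log2 fold change of 0.35 (adjusted p = 0.0474), and its call was lost without any 1 library but control replicate 2 (0.24 to 0.41, adjusted p = 0.0563 to 0.198). It was also lost with library totals (adjusted p = 0.0538), with no filter on low counts (0.0601), with the replicate number as a block (0.0677) and with *Xist* as a covariate (0.0524).

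TFIIIB places Pol III on its genes. Of the 3 genes that encode TFIIIB, 1 was lower (33.3%, with 24.5% of all genes) and 2 were not called. *Brf1*, used at tRNA genes, was at 62.7, 59.8 and 64.8 CPM in cKO and at 56.3, 57.6 and 53.5 CPM in control libraries. Its log2 fold change of 0.16 (adjusted p = 0.0577) missed the threshold although the groups did not overlap, and it passed with DESeq2's size factors (0.17, adjusted p = 0.0476) and with at least 10 counts in every library (0.17, adjusted p = 0.0361). *Brf2*, used where the promoter lies upstream of the gene, was at 7.32, 9.05 and 6.60 CPM in cKO and at 9.40, 10.7 and 8.21 CPM in control libraries (log2 fold change -0.30, adjusted p = 0.15), with overlap. *Bdp1*, common to both forms, was at 71.0, 70.4 and 76.9 CPM in cKO and at 81.9, 83.8 and 81.1 CPM in control libraries (-0.18, SE 0.0558, adjusted p = 0.0235). The call of *Bdp1* was lost with DESeq2 (-0.17, adjusted p = 0.0501) and without cKO replicate 1 (-0.16, adjusted p = 0.0723), cKO replicate 2 (-0.15, adjusted p = 0.105), control replicate 1 (-0.18, adjusted p = 0.0750) or control replicate 2 (-0.17, adjusted p = 0.0711). The ratio of *Brf1* to *Brf2* was 8.09, 6.31 and 9.19 in cKO and 5.74, 5.21 and 6.20 in control libraries. This was a log2 difference of 0.45 (SE 0.175), with the lowest cKO value just above the highest control.

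TFIIIA and TFIIIC recognise promoter elements inside Pol III genes. Of the 7 genes that encode them, 3 were higher (42.9%) and 4 were not called. Over all genes, 24.1% were higher and 24.5% were lower. *Gtf3c6*, the smallest TFIIIC subunit, was at 27.3, 31.6 and 27.1 CPM in cKO and at 20.3, 18.9 and 21.7 CPM in control libraries (log2 fold change 0.50, SE 0.0985, adjusted p = 0.00195). *Gtf3a*, which encodes TFIIIA, was at 56.0, 57.6 and 54.6 CPM in cKO and at 45.4, 49.4 and 46.8 CPM in control libraries (0.25, SE 0.0664, adjusted p = 0.0108). Both were above every control library, and 59.1% of the annotated exon bases of *Gtf3a* lie opposite exons of *Mtif3*. *Gtf3c5* had a log2 fold change of 0.23 (adjusted p = 0.0293), and this call was lost with *Xist* as a covariate (0.22, adjusted p = 0.0547) and without cKO replicate 1 (0.21, adjusted p = 0.103), cKO replicate 2 (0.22, adjusted p = 0.0752), control replicate 1 (0.23, adjusted p = 0.0794) or control replicate 2 (0.18, adjusted p = 0.107). *Gtf3c1*, *Gtf3c2* and *Gtf3c4* each had a log2 fold change of 0.08, and that of *Gtf3c3* was -0.20 (adjusted p = 0.118).

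*Maf1*, the repressor that binds Pol III when nutrients or growth signals are short, fell the most of the 45 genes. It was at 94.6, 91.7 and 90.6 CPM in cKO and at 150.5, 143 and 137 CPM in control libraries. The cKO libraries were close to each other and all below the lowest control. The log2 fold change was -0.64 (SE 0.055, adjusted p = 1.12e-05), which leaves 64.4% of the control level. *Maf1* lies at chr15:76351294-76354380 on the plus strand.

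Transcript use was examined for the genes with several counted transcripts. Of the 45 genes, 30 had 1 counted transcript and 14 had several, and 12 could be tested with edgeR's diffSpliceDGE. Of these, 0 were called at an adjusted Simes p under 0.05, and 0 had an unadjusted p under 0.05, with 1.37% of 2990 genes called in the whole table. The lowest adjusted p from this edgeR test was 0.797, for *Maf1*, and the next was 0.799, for *Ubtf*.

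The 3 *Maf1* transcripts encode the same protein of 258 residues. NM_001164608 took 25.8%, 29.2% and 32.2% of the *Maf1* counts in cKO and 44.8%, 42.2% and 41.6% in control libraries. NM_001164607 took 12.7%, 15.5% and 8.72% in cKO and 5.14%, 4.71% and 3.98% in control libraries. Neither pair of groups overlapped, although the gene was not called. For *Ubtf*, NM_011551 encodes the longer protein, UBF1, of 764 residues, and NM_001302954 encodes UBF2, of 727 residues, which lacks part of a DNA-binding box. With a minor transcript of the same protein length, NM_001044383, UBF2 took 43.4%, 53.5% and 54.7% of the *Ubtf* counts in cKO and 37.2%, 45.0% and 33.1% in control libraries. The groups overlapped, since cKO replicate 1 lay below control replicate 2. UBF1 took 55.6%, 45.3% and 45.3% in cKO and 62.8%, 55.0% and 66.9% in control libraries, and these overlapped. *Ubtf* was called without cKO replicate 3, which takes the number of members called from 0 to 1. *Polr1d* gave 2 transcripts with proteins of 133 and 126 residues in near equal shares, 51.7% ± 2.16 and 48.3% ± 2.16 in cKO and 47.6% ± 4.50 and 52.4% ± 4.50 in controls (SD, n = 3 each).

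**Figure D5:**
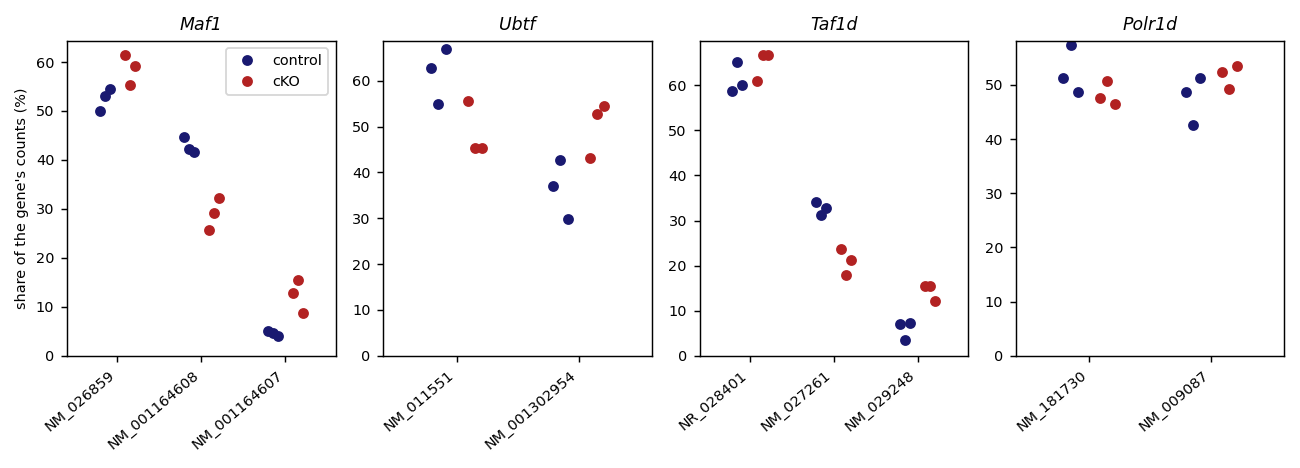
The share of each gene's counts assigned to its RefSeq transcripts, in percent, in the 3 control and 3 cKO libraries, for transcripts with a mean share of at least 5%. The *Maf1* and *Taf1d* panels hold transcripts whose groups do not overlap, while those of *Polr1d* overlap.

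The general transcription factors of Pol II, which place it on promoters, had 11 of 18 genes higher (61.1%), 1 lower and 6 not called, with a median log2 fold change of 0.35. Of the 12 subunits of Pol II, shared ones included, 7 were higher (58.3%), and over all genes 24.1% were. *Gtf2f1*, of TFIIF, was at 147, 151 and 155 CPM in cKO and at 96.7, 97.4 and 99.5 CPM in control libraries (0.62, SE 0.0498, adjusted p = 7.16e-06). *Gtf2h4*, of TFIIH, was at 31.9, 34.9 and 27.5 CPM in cKO and at 20.1, 18.7 and 19.6 CPM in control libraries (0.69, SE 0.103, adjusted p = 0.000335). The gene that fell was *Gtf2b*, which encodes TFIIB (-0.48, adjusted p = 0.000261).

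Of the 21 factors of Pol II pausing and elongation, 8 were higher (38.1%, with 24.1% of all genes), 6 were lower (28.6%, near the 24.5% of all genes) and 7 were not called, and their median log2 fold change was -0.07. *Cdc73*, of the PAF1 complex, which travels with elongating Pol II, was at 114, 115 and 110.1 CPM in cKO and at 64.2, 66.7 and 69.5 CPM in control libraries (0.76, SE 0.0542, adjusted p = 3.97e-06). Singled out after their values were seen, the other PAF1 complex genes of the list were also higher, *Paf1* by 0.43, *Ctr9* by 0.31, *Rtf1* by 0.29 and *Leo1* by 0.25 on the log2 scale. The call of *Leo1* was lost without any 1 library but cKO replicate 1 (0.20 to 0.26, adjusted p = 0.0772 to 0.152), with the replicate number as a block (adjusted p = 0.0667) and with no filter on low counts (adjusted p = 0.0559). The 6 genes that fell were *Nelfe* (-0.46) and *Nelfcd* (-0.27), of the pausing factor NELF, *Cdk9* (-0.35) and *Ccnt1* (-0.36), the kinase and cyclin that release paused Pol II, and *Ell2* (-0.37) and *Aff4* (-0.34), which act with that kinase. *Ell2* is also known for its role in plasma cells, of whose 5 markers 3 fell and 2 rose in cKO, and their part in this result was not tested.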

How the data were processed

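RNA-seq of sorted YFP+ iGCBs covered 3 cKO and 3 control mice. Per the labels and the study's methods, the authors trimmed the reads, used HISAT2 for alignment to mm10 and StringTie for quantification, and deposited estimated counts by gene and by RefSeq transcript, as whole numbers without normalization. Versions, strand setting and annotation release were not given in the sources used here. The labels give 3 days of culture for these samples and a longer general protocol.

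Genes were filtered with filterByExpr (minimum count 10), scaled by TMM and tested with edgeR 4.0.16 (quasi-likelihood, no covariates, R 4.3.3) with Benjamini-Hochberg adjustment over all genes. DESeq2 1.42.0 was an alternative. The fits were checked on simulated data, in which the share of false calls was above the nominal threshold for edgeR and more so for DESeq2, so calls with an adjusted p near 0.05 are less secure. A 1.5-fold cutoff was added where stated. The members, gene lists, ratios and motifs were chosen with earlier results of these data known. Every member may be named, and values in every library are given for members past both cutoffs, the 2 largest changes of each role group, the large subunits, the paralog pairs, the regulators, and related genes past both cutoffs. Transcripts were paired with genes by RefSeq GRCm38.p6 (34674 of 36026 matched). Locations and lengths came from GENCODE M21, with a RefSeq match for 44 of 45 genes. Intervals are 95%. At these totals, a floor of 3 counts is 0.0659 to 0.0768 CPM, for counting error only. The values of 1 Pol III subunit are not reported here, although it stays in the counts and medians of its group.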

Additional observations from a re-analysis of the deposited data

How the results depend on the processing

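With 14 alternatives (DESeq2's size factors or library totals for scaling, DESeq2, no filter, at least 10 counts in every library, counts divided by 2, the replicate number as a block, *Xist* as a covariate, and each library left out), the number of members higher was 15 to 22 and lower 4 to 7. Leaving out libraries gave 15 to 19 higher and 4 to 7 lower, with the 4 without control replicate 2. Past both cutoffs there were 5 or 6 higher and 1 lower. With *Xist*, the median log2 fold change was 0.113 for Pol II, 0.157 for Pol III and 0.142 for the Pol I factors. With each library left out it ranged from 0.0861 to 0.228, 0.0508 to 0.151 and 0.0845 to 0.154, and for the 3 Pol I subunits from 1.36 to 1.48. Members called for transcript use ranged from 0 to 1. *Polr2c* changed sign without cKO replicate 2 or control replicate 3 (range over libraries left out -0.0373 to 0.0610), *Polr3b* without cKO replicate 1 (-0.108 to 0.0138), and *Polr3g* with DESeq2 (0.00152), with *Xist* (0.113) and without cKO replicate 1 or 3 or control replicate 1 or 2 (-0.163 to 0.115). None of the 3 was called in any of these. The cause was not tested.

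The labels give replicate numbers but do not say whether same-numbered samples were paired. The study used paired t tests for proliferation, death and surface proteins of iGCBs. Deviations of same-numbered libraries correlated at 0.003, 0.110 and 0.196. The values 0.110 and 0.196 were above the limit of 0.1 set for pairing and 0.003 was below it, so pairing was not settled. The replicate block left 19 higher and 7 lower members, a Pol I median of 1.40 and an exact p of 0.25 for each ratio, the smallest it can give, and no subunit under another symbol lower. With 3 mice a group, small changes can be missed. Overlapping or near-identical genes limit *Gtf3a*, *Gtf3c2*, *Polr2c*, *Polr2i*, *Polr2j*, *Polr2k*, *Taf1c* and *Taf1d*.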

Other observations

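In 3 lists of genes next to this machinery, a few genes were higher and none was called lower. Higher were 2 of 7 assembly and import genes (28.6%), 1 of 5 SNAPc genes (20%) and 1 of 4 genes for transcription in mitochondria (25%), which is near the 24.1% of all genes called higher. *Gpn1*, a GTPase needed to assemble Pol II and carry it into the nucleus, was at 32.9, 39.3 and 31.2 CPM in cKO and at 20.8, 21.9 and 19.6 CPM in control libraries, with a log2 fold change of 0.73 (SE of log2 0.105, adjusted p = 0.000272). Of the 7 assembly and import genes, *Rpap3*, of the chaperone complex that builds polymerases, was the other gene called (0.39, adjusted p = 0.00103). *Snapc4*, the DNA-binding subunit of the complex that serves snRNA genes of Pol II and Pol III, was at 48.5, 56.5 and 57.3 CPM in cKO and at 35.2, 37.4 and 34.8 CPM in control libraries (0.60, SE of log2 0.0838, adjusted p = 0.000237), and the other 4 SNAPc genes were not called. Of 4 genes for transcription in mitochondria, *Polrmt*, the mitochondrial RNA polymerase, was higher (0.54, adjusted p = 0.00114) and *Tfam*, *Tfb2m* and *Tefm* were not called. *Tfb2m* had a log2 fold change of -0.29 (adjusted p = 0.0665) and was called lower without cKO replicate 2 (-0.41, adjusted p = 0.0212), the only library whose omission changed the calls of this list.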
